A study of Mus musculus with 8 samples.

Results

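The Profibrotic Tubules class was described here: the 454 cells, of 77393 in all, to which the authors gave that name in their deposited cell table. Cells were taken by that name alone, and the library of each cell was taken from the sample name beside it. The data are single-cell RNA sequencing of whole kidney from C57BL/6 mice labelled as 7 weeks old. There were 6 samples titled Control, with the disease label control, and 2 titled UUO, with the label unilateral ureteric obstruction. In UUO the left ureter was tied off and the kidney was taken on day 7, so the UUO samples speak for that time alone. The labels repeat this treatment text for the Control samples too, and what was done to those animals, such as a sham operation, is not stated in the labels. No label says whether a sample was 1 mouse or a pool, so p-values speak for the spread among these samples, part of which may be technical. In fits over several classes they also draw on the spread of the other classes.

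The proximal tubule reabsorbs most of the filtered salt, glucose and amino acids, and its cells are among the first to suffer when a ureter is blocked. Injured proximal tubule cells lose transport functions, and some of them fail to recover and remain in a state that sends inflammatory and matrix-promoting signals to neighbouring fibroblasts and leukocytes. Such cells are usually recognised by Havcr1, which encodes the injury molecule KIM-1, by Vcam1, an adhesion molecule that leukocytes bind, and by Spp1, which encodes the secreted matrix protein osteopontin. Values per gene are not analysed here, so the class could not be checked against these 3 markers or against markers of other cell types, and its name is the authors' own. What the files give for each cell is its class, its library, its UMIs (transcript molecules counted once each), the number of genes with a UMI, the percent of UMIs from mitochondrially encoded genes, and its place in the authors' UMAP embedding, a map in which cells of similar expression lie close together.

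The libraries differed in size and depth, which sets the precision of every value below. They held 2263 to 18393 cells, and 6 to 123 cells of the class. Controls 3 and 4 had the fewest, 6 and 18. Their class make-up did not differ by a chi-square test (p = 0.0509, close to the threshold), whereas the remaining pairs of Control samples gave p-values of 4.09e-41 or lower. They had 10 cell barcodes in common, as had Controls 1 and 3, and the remaining Control pairs had 25 to 316. Within the class Controls 3 and 4 were less alike, with median UMIs of 1556 and 741. On the class make-up they were pooled and counted as 1 sample, which leaves n = 5 for Control and n = 2 for UUO. With 5 against 2 there are 21 ways to choose the UUO samples and the smallest exact p is 0.0476. Of the 454 cells, 40 had a barcode that also occurred in another library, and in 0 of these cases were both the UMIs and the genes the same.

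The first comparison asked whether the class was more frequent after obstruction. As a share of all cells it was not distinguishable between the groups. The class made up 1.03% of the cells of Control 1 (37 cells), 0.653% of Control 2 (42), 0.265% of Control 3 (6), 0.456% of Control 4 (18), 0.60% of Control 5 (97) and 0.30% of Control 6 (41). It made up 0.669% of UUO 1 (123 cells) and 0.696% of UUO 2 (90). Both UUO samples thus lay inside the Control range, below Control 1 and close to Control 2. The exact (Clopper-Pearson) 95% interval was 0.725 to 1.41% for Control 1 and 0.216 to 0.407% for Control 6, so the Control samples differed among themselves by more than counting error. These intervals cover counting error only. Group means were 0.682% ± 0.0193 (SD, n = 2) in UUO and 0.593% ± 0.283 (SD, n = 5) in Control. The log2 odds difference was 0.32 (95% interval -1.34 to 1.99, limma adjusted p 0.702), an interval that holds both a fall and a rise of more than 2-fold in odds. In the same fit 14 of 28 classes were called, a percent called of 50, and the class was not among them.

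Among tubular cells alone, which takes leukocytes out of the denominator, the class made up 0.904% ± 0.128 (SD, n = 2) in UUO and 0.667% ± 0.325 (SD, n = 5) in Control. UUO 1 and 2 held 0.814% and 0.994%. The pooled Controls 3 and 4 held 0.469%, and Controls 1, 2, 5 and 6 held 1.18%, 0.712%, 0.646% and 0.326%. Control 1 was again the highest of all samples, and the other Control samples lay below both UUO samples. The log2 odds difference was 0.56 (95% interval -0.99 to 2.11, limma adjusted p 0.527) in a fit that called 7 of 10 tubule classes, a percent called of 70. The scale decided the call. With TMM scaling in edgeR's quasi-likelihood test the log2 difference was 3.07 (adjusted p 0.00509), and with centred log-ratios in limma it was 2.37 (adjusted p 0.00803). Neither takes the plain total of tubular cells, in which PT cells are many, as its scale. In the centred log-ratios PT counts as 1 of the 10 classes.

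Relative to PT cells the class lay within the Control range after obstruction. There were 18.3, 9.29, 5.69, 10.4, 9.49 and 4.11 cells of the class per 1000 PT cells (the authors' proximal tubule class) in Controls 1 to 6, and 8.43 and 11.1 in UUO 1 and 2. UUO 1 lay below and UUO 2 above most of the Control samples. The ratio to Prolif PT, the authors' proliferating proximal tubule class, also overlapped: it was 1.09 in UUO 1 and 2.14 in UUO 2, and 0.183 to 2.18 in the Control samples, with the lowest value in Control 5, which held 529 Prolif PT cells.

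Among tubular cells outside PT, which include Prolif PT and the class itself, the class made up a much larger share after obstruction. Of the tubular cells outside PT, it made up 23.0% in UUO 1 (123 of 535 cells, exact 95% interval 19.5 to 26.8%) and 9.27% in UUO 2 (90 of 971, 7.52 to 11.3%). In Controls 1, 2, 5 and 6 it made up 3.32%, 3.05%, 2.02% and 1.57%, and in the pooled Controls 3 and 4 1.03%. Every UUO sample lay above every Control sample, and UUO 2 lay well below UUO 1. The means were 16.1% ± 9.70 (SD, n = 2) in UUO and 2.20% ± 0.973 (SD, n = 5) in Control. The log2 odds rose by 3.07 (SE 0.60, 95% interval 1.67 to 4.48, limma adjusted p 0.0107 over 9 classes). The percent called in this fit was 33.3, that is 3 of 9 classes, with the class called higher and CNT (connecting tubule) and B-IC (base-secreting intercalated) cells called lower. Prolif PT went the same way as the class but was not called (2.12, 95% interval -0.42 to 4.67, limma adjusted p 0.140). The direction was thus not particular to the class. The exact permutation p was 0.0476, the smallest possible, and 0.107 after adjustment over the 9 classes.

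This rise goes with a smaller denominator. Tubular cells outside PT were 3.54% and 10.7% of the tubular cells of UUO 1 and 2 and 20.7 to 46.4% of those of the Control samples. The ratio to PT given above, which does not hold these cells, overlapped between the groups. Loss of cells of the other segments in the animal and their poorer recovery from the tissue cannot be told apart here. Limma borrows variance from the other classes, and in the 4 libraries of over 10000 cells an exact permutation test cannot go below 0.333. Among these libraries, Controls 5 and 6 and UUO 1 and 2, the difference was 3.26 (limma adjusted p 0.00305). It was not called without UUO 1 (2.30, limma adjusted p 0.0772), where UUO 2 stands alone and is assumed to vary like the Control samples. Without UUO 2 it was 3.84 (adjusted p 0.00696). The comparison with PT out of the denominator was chosen with earlier results on these cells known.

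Class by class, the ratio of the class to other tubule classes showed the same split. For 6 of the 8 tubule classes outside PT, the number of cells of the class per 100 cells of the other class was above the whole Control range in UUO 1 and in UUO 2. These 6 classes were also the 6 called lower in UUO by limma as a share of tubular cells. The count is thus not a separate result about the class, and no such count was made with another class as numerator. These ratios share their numerator and are given with no test. Per 100 cells of the distal convoluted tubule (DCT), a segment that takes back salt, there were 126 cells of the class in UUO 1, 32.03 in UUO 2 and 2.56 to 9.71 in the Control samples. Per 100 cells of the ascending loop of Henle (ALOH), which dilutes the urine, there were 150.0 in UUO 1, 39.1 in UUO 2 and 2.40 to 19.6 in Control. Per 100 CNT cells there were 513 and 88.2 in UUO 1 and 2 and 4.65 to 22.4 in Control, and per 100 collecting duct principal cells (CD PC), the target of vasopressin, 683 and 136 against 11.3 to 29.0. B-IC and Trans IC (transitional intercalated) cells gave the same order. The UUO 1 values rest on as few as 15 Trans IC and 18 CD PC cells. The groups overlapped for Prolif PT and for the acid-secreting A-IC cells, with 102 and 280 per 100 A-IC in UUO 2 and 1 and up to 109 in Control.

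**Figure D1:**
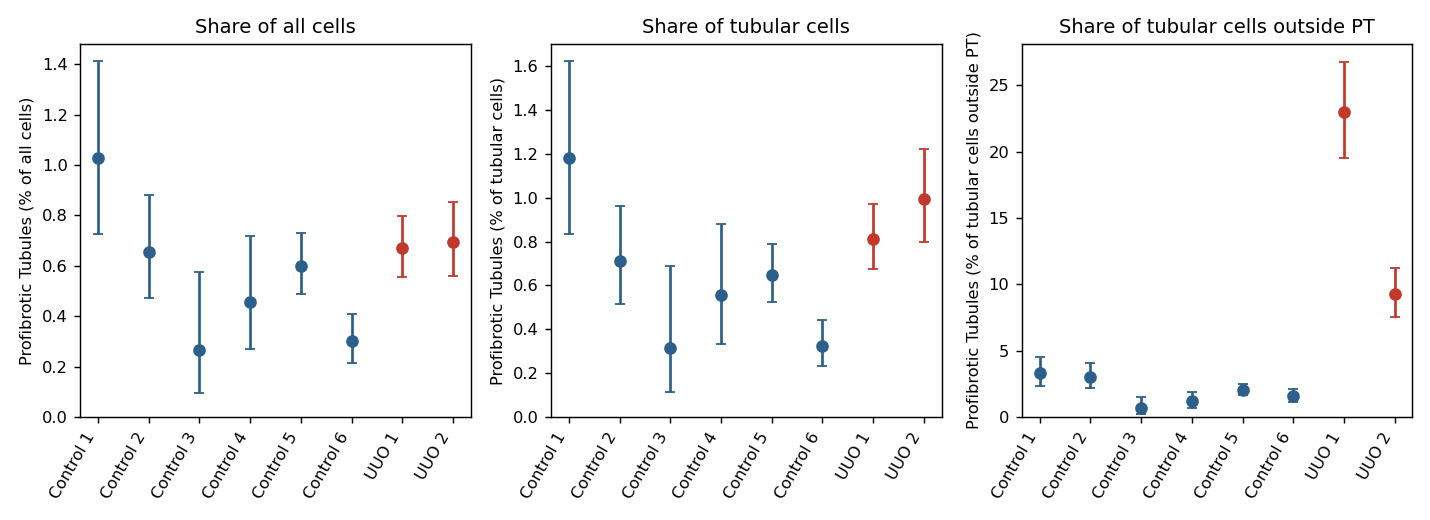
Share of the Profibrotic Tubules class in each of the 8 libraries, as a percent of all cells, of tubular cells and of tubular cells outside PT (y axes, percent). Points are single libraries (blue Control, red UUO) and bars are exact 95% binomial intervals. The UUO points lie within the Control range in the first 2 panels and, at 23.0% and 9.27%, above all Control points in the right-hand panel.

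The content of the cells was compared next. Over all libraries the 454 cells held 513 to 13133 UMIs (median 2768), 310 to 2997 genes (median 1250) and 0.272 to 34.7% mitochondrial UMIs (median 7.08%). The highest gene number lies at the upper end of the whole table, 2998, so cells of higher content may have been left out of it by the authors' filter. UMIs are raw, and depth of a library and RNA content of a cell are mixed in them.

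Median UMIs per cell of the class were 3672, 2598, 1556, 741, 2747 and 2337 in Controls 1 to 6 and 2780 and 2978 in UUO 1 and 2. Control 4 stood lowest: 11 of its 18 cells held under 1000 UMIs, against 5 of 123 in UUO 1, 6 of 90 in UUO 2 and 15 of 97 in Control 5. Control 1 stood highest, above both UUO samples. Means of the sample medians were 2879 ± 140 (SD, n = 2) in UUO and 2466 ± 972 (SD, n = 5) in Control. The log2 difference was 0.35 (95% interval -0.33 to 1.03, limma adjusted p 0.449 over 26 classes). Without Controls 3 and 4 the difference was 0.04 (adjusted p 0.901). The percent called for UMIs was 15.4, which is 4 of 26 classes, Prolif PT being one of them and the class of interest not.

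Genes detected per cell followed the UMIs. Sample medians were 1727, 1365, 954, 427, 1060 and 1140 in Controls 1 to 6 and 1283 and 1252 in UUO 1 and 2. The log2 difference was 0.19 (95% interval -0.33 to 0.70, limma adjusted p 0.532), and it turned to -0.036 without Control 4, where Control 3, at 6 cells, was dropped as too small. The percent called for genes was 19.2, or 5 of 26 classes.

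PT cells of the same library share its depth, so the class was also set against them. The ratio of median UMIs, class over PT, was 2.91, 1.54, 1.35 and 0.95 in Controls 1, 2, 6 and 5, 0.709 in the pooled Controls 3 and 4, and 1.06 and 1.09 in UUO 1 and 2. The Control samples thus lay on both sides of 1 and the UUO samples just above it. The UUO minus Control difference of the log2 ratio was -0.30 (exact permutation p 0.619, 0.889 adjusted over 4 such measures). For genes the ratios ran from 0.892 to 2.88 in Control and were 1.19 in both UUO samples, a log2 difference of -0.29 (exact permutation p 0.667, adjusted 0.889). Since genes detected depend on UMIs, genes were also compared at matched UMIs, as the median residual from a line fitted to the PT cells of the same library. Cells of the class held more genes than PT cells of equal UMIs in each of the 8 libraries, by a factor of 1.23, 1.20, 1.26, 1.03, 1.04 and 1.08 in Controls 1 to 6 and of 1.11 and 1.10 in UUO 1 and 2. The matched UMIs include mitochondrial ones, of which the class held a lower percent than PT in most libraries. Whether this has a part in the excess was not tested. Class names were given from the expression of these same cells, so the excess over PT is a description. That excess was 0.15 in UUO and 0.17 in Control on the log2 scale and did not pass as a difference between the groups (exact permutation p 0.905, adjusted 0.905).

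Mitochondrial transcripts separated the class from PT in most libraries. PT cells are packed with mitochondria that power sodium transport. Median mitochondrial percentages of the class were 3.14, 4.33, 4.02, 6.22, 13.2 and 13.7 in Controls 1 to 6 and 6.70 and 7.52 in UUO 1 and 2. The medians of PT in the same libraries were 9.60, 9.29, 12.4, 11.7, 11.3, 17.3, 15.9 and 16.0. The class therefore lay below PT in 7 of 8 libraries, and Control 5 was the exception, at 13.2% against 11.3%. It had the lowest median of the 10 tubule classes in 6 libraries, was second lowest in UUO 1 and ranked 3 from the lowest in Control 5. Class names were given from the expression of these same cells, so this contrast with PT is a description with no test.

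Between groups, mitochondrial percentages of the class did not differ detectably: 7.11% ± 0.579 (SD, n = 2) in UUO and 7.98% ± 5.04 (SD, n = 5) in Control. The difference was -0.87 points (95% interval -9.08 to 7.34, limma adjusted p 0.992). In that fit limma called 0 of 26 classes, a percent called of 0, with 0 at an unadjusted p under 0.05 by limma and 0 by the exact permutation test. The Control spread came from 2 sets of libraries: Controls 5 and 6 lay above both UUO samples and Controls 1 to 4 below them. Without Controls 5 and 6 the difference was 2.75 points (adjusted p 0.308), and against Controls 5 and 6 alone, within the libraries of over 10000 cells, it was -6.31 points (adjusted p 0.0696). The direction thus depended on which Control libraries were used, and how the 2 sets differed in handling is not stated in the labels.

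Set against PT of the same library, the median of the class differed by -9.16 and -8.46 points in UUO 1 and 2. The difference was -6.46, -4.96, 1.80 and -3.62 points in Controls 1, 2, 5 and 6, and -6.21 points in the pooled Controls 3 and 4. Both UUO samples had the widest gaps of the 7 samples, with Controls 3 and 4 pooled. Control 3 alone, at 6 cells of the class, had -8.37 points, close to UUO 2. Mean PT medians were 15.9% ± 0.0864 (n = 2) in UUO and 11.9% ± 3.22 (n = 5) in Control. This PT difference of 4.05 points was not called (limma adjusted p 0.992). The PT median of Control 6, at 17.3%, lay above those of both UUO samples. Whether PT accounts for the wider gaps was not tested. The UUO minus Control difference of the gap was -4.92 points and did not pass the exact permutation test (p 0.143, adjusted 0.571). It was -5.56 to -3.50 points with each library left out in turn. Among the libraries of over 10000 cells it was -7.90 points, where the exact permutation test of 2 against 2 cannot go below 0.333, and without Controls 5 and 6 it was -2.93 points. Cells at or above 25% mitochondrial UMIs were 1 of 123 in UUO 1, 5 of 90 in UUO 2, 14 of 97 in Control 5, 7 of 41 in Control 6 and 3 in Controls 1 to 4 together.

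**Figure D2:**
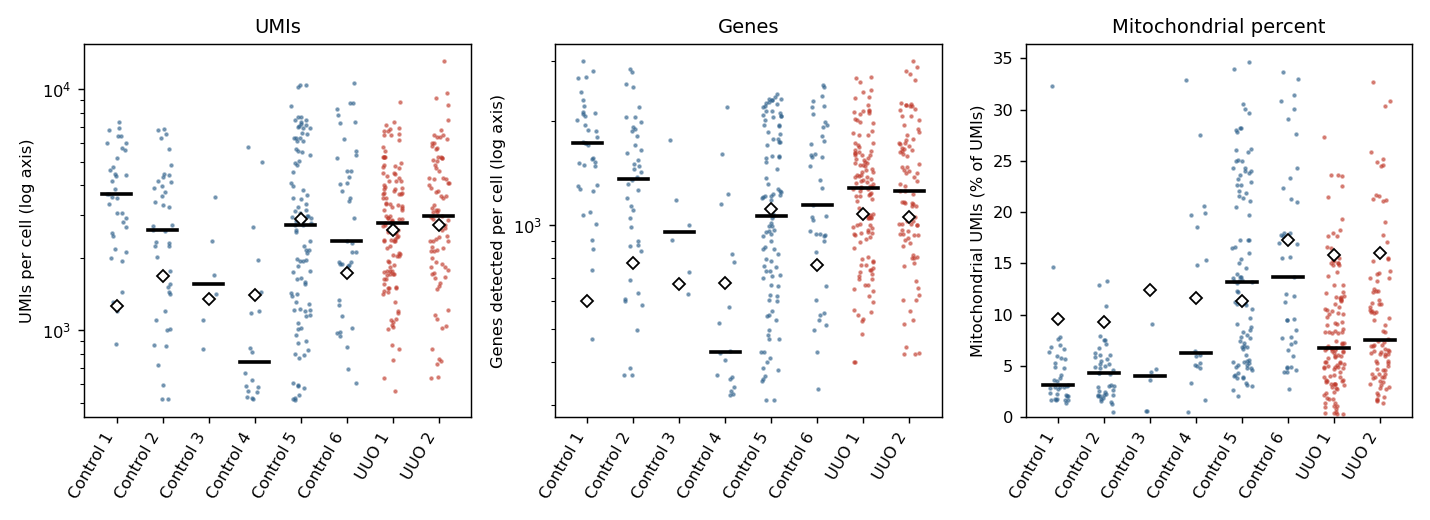
UMIs per cell, genes per cell (log axes) and mitochondrial percent of each of the 454 cells, by library. Dots are cells (blue Control, red UUO), black bars are the medians of the class and open diamonds the medians of PT cells of the same library. The bar lies below the diamond for mitochondrial percent in every library other than Control 5, and Control 4 has the lowest median UMIs.

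All 454 cells had a place in the authors' embedding, which holds 25200 cells and 0 of class PT, so nearness to PT could not be read from it. Of the 15 nearest embedded cells around each member, 94.5% carried the same class name, 1.66% were DCT, 1.60% Prolif PT and 0.646% CNT. Class names and map were both made by the authors from these same cells. A high same-class share is thus built in and is no evidence that the class is separate. The share of same-class neighbours was 97.0% ± 3.05 (SD, n = 5) in Control and 93.3% ± 1.32 (SD, n = 2) in UUO, a difference of -3.73 points (exact permutation p 0.190).

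Within the class the cells formed 2 arms joined by a thin bridge, with a left arm near 4 and a right arm near 5.5 on the first UMAP axis. Only 18 cells lay between 4.6 and 5.1. The arms were divided at 4.9, a line drawn after the map was seen, so their shares are given with no test. The left arm held 253 cells, the right arm 177, and 24 cells lay outside both. The right arm was itself uneven. It held 38 cells from 5.5 to 5.6, 2 from 5.7 to 5.8, 8 from 5.8 to 5.9 and 12 from 5.9 to 6. These outer cells were kept in the right arm and not looked at apart, so its shares and medians include them.

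The arms were filled unequally across libraries. The right arm held 28 of 37 cells in Control 1, 31 of 41 in Control 2, 5 of 6 in Control 3, 6 of 18 in Control 4, 32 of 92 in Control 5 and 19 of 40 in Control 6, counting the cells of both arms. It held 28 of 111 cells in UUO 1 and 28 of 85 in UUO 2, which are 25.2% (exact 95% interval 17.5 to 34.4%) and 32.9% (23.1 to 44.0%). Right-arm cells were thus the majority in Controls 1 to 3 and the minority in Controls 4 to 6 and both UUO samples. The share was lowest in the UUO samples, but Control 4 at 33.3% and Control 5 at 34.8% came within about 2 points of UUO 2.

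As a share of all cells, the left arm made up 0.451% in UUO 1 and 0.441% in UUO 2. It made up 0.250% in Control 1, 0.155% in Control 2, 0.0442% in Control 3, 0.304% in Control 4, 0.371% in Control 5 and 0.154% in Control 6. Both UUO values lay above every Control value. The right arm made up 0.152% and 0.217% in UUO 1 and 2, 0.778% and 0.482% in Controls 1 and 2, and 0.139 to 0.221% in Controls 3 to 6. For the right arm the UUO samples thus lay among Controls 3 to 6, and Controls 1 and 2 stood above all others. In the class as a whole, Control 1 was the only Control sample above the UUO samples.

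The median position was compared over samples as a test that needs no dividing line. With few cells between the arms, a sample's median mainly follows which arm held more of its cells. It is thus no separate check of the arm shares. The first coordinate had a median of 4.06 in both UUO samples and of 5.36, 5.43, 4.31 and 4.77 in Controls 1, 2, 5 and 6 and 4.61 in the pooled Controls 3 and 4. The second coordinate lay between -1.07 and -0.977 in every sample. The distance between group means of these medians was 0.843 UMAP units (exact permutation p 0.0952). It was 0.640 with means in place of medians and 0.992 with cells of at least 1000 UMIs, each with the smallest exact permutation p of 0.0476.

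**Figure D3:**
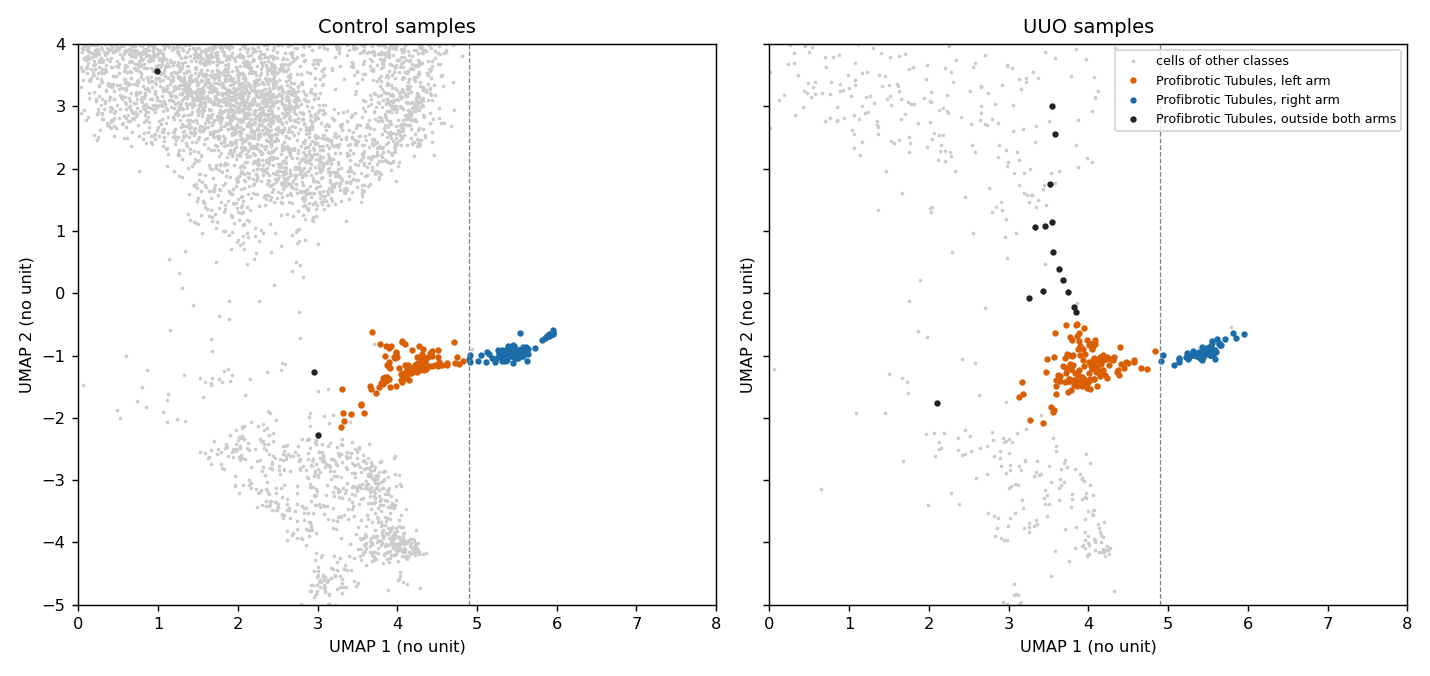
Cells of the class in the authors' UMAP embedding (axes without unit), Control samples on the left and UUO samples on the right. Colours give the left arm (orange), the right arm (blue) and cells outside both (black), grey dots are cells of other classes in the same window, and the dashed line is at 4.9. The left arm holds 113 of 241 Control and 140 of 213 UUO cells, and black cells leading upward are seen in the UUO panel.

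**Figure D4:**
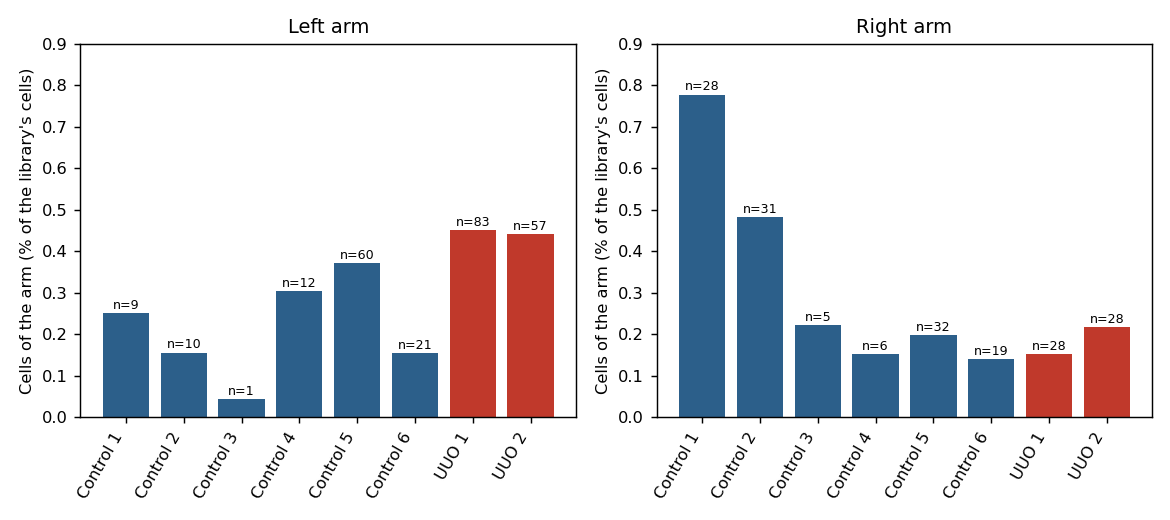
Cells of the left and right arm as a percent of all cells of each library (y axis from 0; blue Control, red UUO; n is the number of cells). In the left arm both UUO bars, at 0.451% and 0.441%, are above all Control bars, and in the right arm Controls 1 and 2 are highest.

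The arms also differed in mitochondrial percent, though not in the same way in every library. In Controls 5 and 6 the left arm had medians of 15.5% and 21.0% and the right arm 7.60% and 7.78%, and in Control 4 they were 16.9% and 5.17%. In UUO 1 the medians were 8.30% on the left and 5.70% on the right, and in UUO 2 they were 6.97% and 10.6%, the other way round. Controls 1 and 2 had low values on both sides, 2.73% and 5.84% on the left and 3.72% and 3.005% on the right. The left-arm cells of Control 4 held a median of 604 UMIs, against 3218 and 3164 in UUO 1 and 2, so left-arm cells of that library were of another content than those of the UUO libraries. Whether depth or cell quality has a part in the place of a cell in the map was not tested.

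A small strand of cells led upward from the left arm, toward the DCT cells of the map. It held 14 cells, 11 from UUO 1 and 3 from UUO 2, which is 6.57% of the 213 UUO cells of the class. It held 0 of the 241 Control cells, with the cells of 6 unlike libraries pooled. Its bounds were set after the map was seen, so this 0 is a description and gives no limit for the share in Control. In UUO 1, 9 of its 11 cells had under 2% mitochondrial UMIs and the median was 0.765%, and in UUO 2 this held for 1 of 3 cells with a median of 5.31%. The low mitochondrial percent of the strand was thus that of UUO 1. Median UMIs were 1495 in UUO 1 and 1487 in UUO 2. Cells under 2% also occurred outside the strand but were more frequent in it. They were 10 of the 14 strand cells, 13 of 253 in the left arm and 13 of 177 in the right arm. In all, 36 cells of the class were under 2%, 19 from UUO and 17 from Control samples. The strand was noticed in the map and is given with no test.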

How the data were processed

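Whole-kidney 10x Genomics Chromium 3′ single-cell libraries of 6 Control and 2 UUO samples were measured, grouped by title. The submitters' processing notes name mm10, Seurat 4.0.1 and Cell Ranger 6.0.1 without their roles. For filters, class calling, doublet treatment and embedding, settings are not stated in the labels. UMIs and genes per cell are raw counts, per the file headers; the mitochondrial share is a percent of a cell's UMIs, per the file headers; UMAP coordinates are a score without unit made by the authors.

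The members, lists, tests and alternatives were chosen with earlier results of these data known; the arms, the upward strand and the alternatives named as added were chosen after the map or values were seen. The text names the class in every comparison, PT and Prolif PT, the 3 classes most frequent among its embedded neighbours, and other tubule classes as reference points.

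Shares were fitted over all classes of a denominator as log2((n + 0.5)/(N - n + 0.5)) with limma 3.58.1 in R 4.3.3, Benjamini-Hochberg adjusted, threshold 0.05. For shares of all and of tubular cells the variance prior took over fully, so the standard error is shared by all classes and treats them as independent. Sample medians (log2 for UMIs and genes) were fitted likewise over 26 classes, namely those where 2 or more samples per group had 10 or more cells (a sample below 10 was dropped for that class). For UMIs and genes the variance prior held 53.5 and 56.3 degrees of freedom, so these intervals rest mainly on other classes. The residual SD of the class itself was 0.650 for UMIs and 0.505 for genes, and its own spread alone would give wider intervals. Measures within a sample and positions were compared by exact permutation over samples, two-sided for differences. Alternatives included quasi-likelihood tests of cell numbers in edgeR 4.0.16, other scales and cell filters, 8 separate samples, the sample number as a block, and each sample left out. The fits were tested on simulated data. Library totals of 4375942 to 56755823 UMIs and 6 to 123 cells of the class set the precision. No per-sample column was left out.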

Additional observations from a re-analysis of the deposited data

How the results depend on the processing

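The numbers 1 and 2 in the titles are shared by Control and UUO samples but nothing in the labels pairs them. Over the 28 classes, deviations from the group means correlated at -0.33 for the samples numbered 1 and 0.06 for those numbered 2. With 2 UUO samples the deviations of one mirror those of the other. Control 1 thus gave 0.33 with UUO 2, and Control 2 gave -0.06 with UUO 1. These correlations therefore cannot show whether samples are paired. With the sample number as a replicate block, the differences were -0.28 for the share of all cells, -0.041 for tubular cells and 2.40 for tubular cells outside PT (limma adjusted p 0.136), -0.10 for UMIs, -0.28 for genes and 3.37 points for mitochondrial percent; the cause was not tested, and the block compares Controls 1 and 2 alone with the UUO samples.

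The rise among tubular cells outside PT kept its direction under all 21 alternatives and its call under 18. Limma or edgeR adjusted p ran from 0.00305, in the libraries over 10000 cells (2 against 2), to 0.136. The rise was not called under the block, without UUO 1 (2.30) or by the exact permutation test (3.07, adjusted p 0.107). With each library left out in turn it lay between 2.30 and 3.84. The share of tubular cells was called with centred log-ratios (2.37) and TMM (3.07); with each library left out it lay between 0.33 and 0.80, and the share of all cells between 0.11 and 0.56. UMIs then lay between 0.04 and 0.52, genes between -0.036 and 0.34 and mitochondrial percent between -2.08 and 0.55 points. Genes had the other sign with cells of at least 1000 UMIs (-0.069) and without Controls 3 and 4 (-0.036). Mitochondrial percent had it with cells under 25% mitochondrial UMIs (0.050 points) and without Controls 5 and 6 (2.75 points). Genes at matched UMIs had it within the libraries over 10000 cells (0.058), and lay between -0.057 and 0.0032 with each library left out. The distance in the embedding passed with means (0.640) and with cells of at least 1000 UMIs (0.992), and lay between 0.709 and 0.991 with each library left out. UMIs and genes relative to PT, mitochondrial percent relative to PT and same-class neighbours kept their sign in all of their alternatives. All stayed uncalled, but many could not have been called at 0.05. The smallest exact permutation p was 0.0667 without Control 1, 0.167 without UUO 1 and 0.333 in the libraries over 10000 cells. With 21 ways, adjustment over the 4 measures relative to PT passes only where all 4 reach 0.0476. Leaving out Controls 3 and 4 together, Controls 5 and 6 together, or cells outside both arms was added after seeing the data. With 2 UUO samples, and 6 cells of the class in Control 3, only wide differences could pass.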

Other observations

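Across the cells of the class, the relation of UMIs to mitochondrial percent varied in size and sign between libraries. Spearman's rho over cells was -0.36 in Control 1 (37 cells), -0.18 in Control 2 (42), 0.029 in Control 3 (6), -0.35 in Control 4 (18), -0.06 in Control 5 (97), -0.15 in Control 6 (41), 0.14 in UUO 1 (123) and 0.03 in UUO 2 (90). It was -0.50 over the 24 pooled cells of Controls 3 and 4. Cells of 1 library share its depth, and these values are descriptions.

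Of the 24 cells outside both arms, 14 formed the upward strand of the UUO samples. By the most frequent class among their 15 nearest embedded cells, 9 of the 24 lay with cells of their own class, 7 with DCT, 2 with GEC (the authors' glomerular endothelial class), 2 with Prolif PT and 1 each with B_Lymphocyte, CD PC, Macro and Podo. Of the 7 with DCT, 6 came from UUO samples.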
